A study of Homo sapiens and Mus musculus with 13 samples.

Results

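BCR and ABL1 are the 2 human genes that are joined to each other in the K562 leukaemia line. Peaks of RNA:DNA hybrids on both genes and in the 500 kb on either side were taken from 6 human peak lists. On the hg19 build, BCR lies on chromosome 22 from 23522552 to 23660224 (137.7 kb) and ABL1 on chromosome 9 from 133589268 to 133763062 (173.8 kb). Both are read from the plus strand, and positions are counted from 1. Of the 325035 peaks in the 6 lists, 872 touched the BCR or the ABL1 window. The K562 list gave 262 of these, and the NT2 lists gave 184 (digest A), 105 (digest B), 155 (RNase A), 15 (RNase H) and 151 (DRIPc).

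K562 is a leukaemia line with erythroid and myeloid traits, and NT2 is a pluripotent line from an embryonal carcinoma. DRIP-seq recovers hybrids with an antibody from restriction-cut genomic DNA and sequences the DNA without strand, whereas DRIPc-seq sequences the RNA strand of the hybrid and so assigns a strand to each peak. K562 DNA and the NT2 DNA of digest A, RNase A, RNase H and DRIPc were cut with HindIII, EcoRI, BsrGI, XbaI and SspI, and that of digest B with BamHI, NcoI, ApaL1, NheI and PvuII. RNase H destroys RNA paired with DNA, so the NT2 list made after it is the negative control. The DRIPc list stands for 2 samples and the other 5 lists for 1 sample each, no RNase H-treated K562 sample was analysed here, and no group has a replicate list. Differences below are therefore given without a test, and a difference between cell lines cannot be told apart from one between libraries.

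An R-loop forms when newly made RNA pairs again with its DNA template and leaves the other DNA strand unpaired, most often over transcribed genes and where the unpaired strand is rich in G. BCR encodes a signalling protein with kinase and RhoGEF domains that is made in most cell types. ABL1 encodes a tyrosine kinase of cytoplasm and nucleus, and its long first intron separates an upstream from a downstream promoter. In the Philadelphia translocation of chronic myeloid leukaemia, the upstream part of BCR, promoter included, is joined to the downstream part of ABL1, which leaves an ABL kinase that is always active. K562 came from a patient with this leukaemia and is known to carry several copies of the fused segment. The lists hold neither copy numbers nor junctions, so the fusion itself was not examined, and more copies of a region and more hybrid per copy cannot be told apart.

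The promoters are shown first because peaks lay over or beside each of them. Both sequences come from the RefSeq promoter table on GRCh38.p14, run 5′ to 3′ on the plus strand and cover 250 bases before to 50 bases after a transcript start. Capitals mark runs of 4 or more G on the strand of the gene. The BCR window is chr22:23180259-23180558 and starts 250 bases before the gene. The ABL1 window is chr9:130835004-130835303 and belongs to the downstream promoter, with its transcript start 122.2 kb after the start of the gene on that build.
BCR promoter: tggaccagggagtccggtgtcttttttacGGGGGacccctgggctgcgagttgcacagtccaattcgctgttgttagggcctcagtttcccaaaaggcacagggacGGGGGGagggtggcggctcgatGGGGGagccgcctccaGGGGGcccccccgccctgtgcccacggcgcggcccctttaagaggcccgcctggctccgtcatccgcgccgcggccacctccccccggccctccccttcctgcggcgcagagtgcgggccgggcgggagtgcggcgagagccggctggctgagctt
ABL1 downstream promoter: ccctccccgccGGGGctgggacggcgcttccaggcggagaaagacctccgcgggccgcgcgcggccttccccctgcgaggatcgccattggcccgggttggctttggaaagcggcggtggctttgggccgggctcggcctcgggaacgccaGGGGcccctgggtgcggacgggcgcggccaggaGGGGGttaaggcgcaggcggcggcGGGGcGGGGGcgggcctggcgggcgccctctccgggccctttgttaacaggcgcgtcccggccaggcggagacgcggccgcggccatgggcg
The BCR sequence was 71.7% G and C with 27 CG pairs, and the ABL1 sequence 78.3% with 42, against medians of 58.7% and 14 in 35116 promoters of the table. BCR held 4 runs of at least GGGG on the gene's strand and 5 of at least CCCC, which are GGGG on the other strand, and ABL1 held 5 and 3. GGGG on either strand occurred in 89.6% of all promoters, so its presence does not set these apart. The GC skew, (G − C)/(G + C), was 0.033 for BCR and 0.14 for ABL1, against a median of 0.012. Neither sequence held a site of the 5 digest A enzymes (HindIII AAGCTT, EcoRI GAATTC, BsrGI TGTACA, XbaI TCTAGA and SspI AATATT, each the same on both strands), which 22.6% of promoters did. Of the 5 digest B sites (BamHI GGATCC, NcoI CCATGG, ApaL1 GTGCAC, NheI GCTAGC and PvuII CAGCTG, each the same on both strands), found in 36.4% of promoters, ABL1 held 1, the NcoI site CCATGG at base 292 of the window, and BCR held none. CCATGG occurred in 8.86% of promoters.

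At the BCR start, 4 of the 6 lists had a peak. The K562 peak ran from 23515301 to 23529469, digest A from 23520921 to 23522734, digest B from 23521808 to 23523879 and RNase A from 23521008 to 23522566. The first DRIPc peak on the gene began 2.55 kb further in, on the plus strand. At the annotated start of ABL1, the digest A peak from 133584278 to 133589313 and the RNase A peak from 133585851 to 133589292 reached just into the gene. The nearest K562 and digest B peaks stopped 60 and 151 bp short of it, and the nearest DRIPc peak 951 bp. The downstream ABL1 transcript start lies 122.2 kb after the gene start on GRCh38.p14, a distance not converted between builds. Near it, peaks ran from 119.2 to 122.1 kb (digest A), 119.8 to 122.1 kb (digest B) and 119.3 to 122.0 kb (RNase A). K562 had 3 peaks there, together from 117.1 to 124.0 kb. The nearest DRIPc peak, on the minus strand, ran from 118.6 to 120.6 kb. Because the distance was not converted, it cannot be told which of these hg19 peaks span the transcript start.

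**Figure D1:**
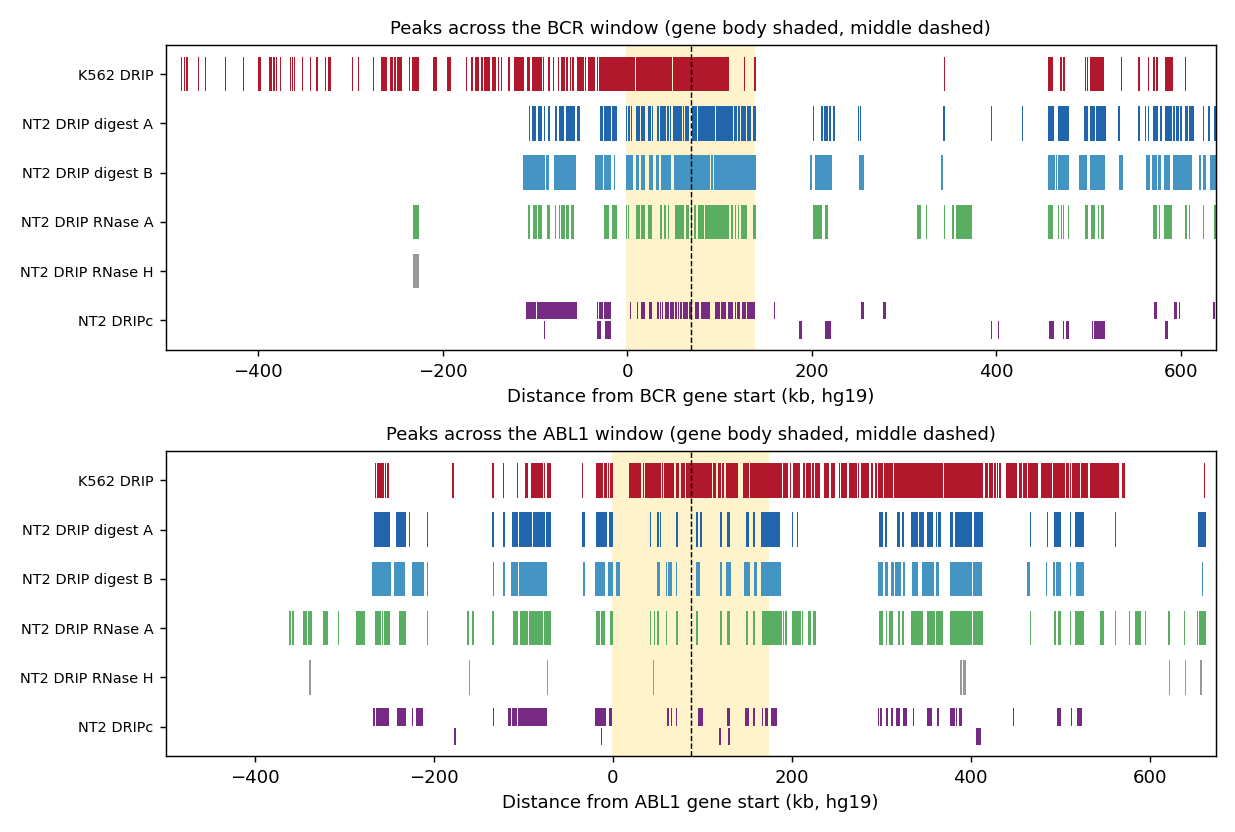
Peaks of the 6 lists over the BCR window (top) and the ABL1 window (bottom), by distance from the gene start in kb on hg19; each bar is 1 peak, and DRIPc peaks are drawn above the line for the plus and below it for the minus strand. Red K562 bars run along the left of the BCR window up to 110.1 kb, with no gap above 17.8 kb, and along the ABL1 window from 17.8 to 572.1 kb, with no gap above 5.11 kb.

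Each window was divided at the middle of the gene body, at 23591388 for BCR and 133676165 for ABL1, and cover means the percentage of bases under a peak. On the 5′ side of BCR, flank included, K562 cover was 44.0%, and the NT2 lists covered 16.8% (digest A), 21.2% (digest B), 14.2% (RNase A), 18.8% (DRIPc) and 1.08% (RNase H). K562 stood above all 5 NT2 lists, at 2.62 times digest A, 2.07 times digest B, 3.10 times RNase A and 2.34 times DRIPc. On the 3′ side of BCR the order turned: K562 covered 15.6%, against 28.8%, 34.4%, 22.4% and 18.6% in digest A, digest B, RNase A and DRIPc, and no base in RNase H. K562 was thus lowest of the lists other than RNase H, at 0.54 times digest A and 0.84 times DRIPc. The lists differ in total cover, for which these ratios do not allow. Divided by the ratio of whole-list cover, they were 0.63 (digest A), 0.76 (digest B), 0.89 (RNase A) and 1.61 (DRIPc). Relative to list size, K562 was thus above DRIPc on this side. The ratio of K562 to digest A cover differed 4.84-fold between the sides, 4.59-fold with digest B, 4.47-fold with RNase A and 2.80-fold with DRIPc in its place.

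With the flanks included, ABL1 showed the opposite order, with the excess of K562 downstream. On the 5′ side, K562 covered 19.9% and lay within the NT2 range of 17.1% (DRIPc) to 21.4% (digest B), RNase H apart at 0.79%. Divided by the ratio of whole-list cover, K562 was above these lists. It was then 1.32 times digest A, 1.56 times digest B, 1.29 times RNase A and 2.23 times DRIPc. On the 3′ side, K562 covered 69.8%, against 24.0% in digest A, 25.7% in digest B, 31.3% in RNase A, 14.5% in DRIPc and 1.84% in RNase H. That was 2.91 times digest A, 2.71 times digest B, 2.23 times RNase A and 4.82 times DRIPc. The K562 to digest A ratio was 2.57 times higher on the 3′ than on the 5′ side. On the gene body without the flanks this order reversed, with ratios of 11.8 upstream and 3.08 downstream of the middle.

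These ratios were read against all 500 kb tiles of chromosomes 1 to 22, X and Y. Over the whole list K562 covered 3.76% of the genome and digest A 4.39%, a ratio of 0.86, and the median tile had 0.73 times the digest A cover, with 1 kb added to both lengths. Of 3188 tiles with at least 1% cover in either list, 8.69% had at least 2 times and 6.46% at least 2.5 times the digest A cover, as the 5′ side of BCR and the 3′ side of ABL1 did; among 949 tiles with at least 10% cover, 3.27% had at least 2.5 times. A ratio of 0.6 or less, as on the 3′ side of BCR, was common, at 39.8% and 23% of these tiles, and 32% of the 3188 were at 0.5 or less. Between neighbouring tiles the ratio differed at least 4-fold, as it did between the sides of BCR, in 18.3% of 2333 pairs and in 4.1% of 585 pairs with at least 10% cover. It differed at least 2-fold, as it did for ABL1, in 39.7% and 17.3%. Read this way, a step of the size seen between the sides of ABL1, flanks included, was not rare, and the downstream deficit at BCR was ordinary for K562 against digest A. The 10% minimum was chosen after the data were examined.

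**Figure D2:**
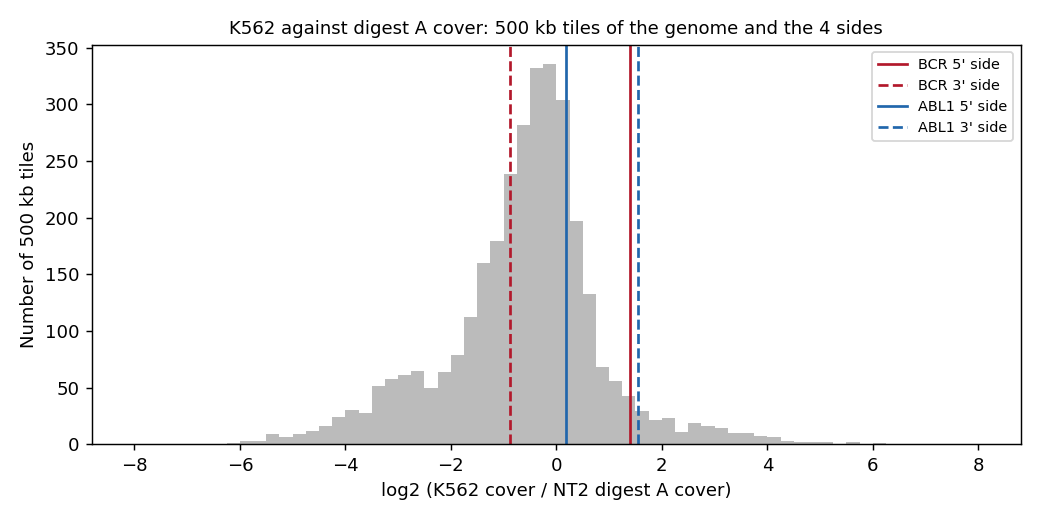
Histogram of the log2 ratio of K562 to digest A cover in 3188 tiles of 500 kb, with vertical lines for the 5′ (solid) and 3′ (dashed) sides of BCR (red) and ABL1 (blue); for the tiles, 1 kb was added to both lengths. The BCR 5′ and ABL1 3′ lines stand in the right tail, and the other 2 within the bulk.

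Peak density, the number of peak centres per Mb, gave K562 and digest A the same order on each side as cover did, with exact Poisson 95% intervals that hold counting error only. On the 5′ side of BCR there were 186 peaks per Mb in K562 (153 to 225, 106 peaks) and 65.0 in digest A (45.8 to 89.7, 37 peaks), intervals that do not overlap. On its 3′ side there were 45.7 (29.9 to 67.0, 26 peaks) and 114 (88.2 to 146, 65 peaks), again without overlap. The 5′ side of ABL1 had 66.5 (47.3 to 90.8) in K562 and 56.2 (38.7 to 79.0) in digest A, which overlap. The 3′ side had 155 (125 to 190) and 83.5 (61.8 to 110), which do not. Against digest B, RNase A and DRIPc the K562 density on the 5′ side of BCR was 6.62, 4.42 and 2.79 times as high, and on the 3′ side of ABL1 2.76, 1.69 and 2.39 times. On the 3′ side of BCR the K562 density against these lists was 0.72 (0.42 to 1.23), 0.65 (0.38 to 1.09) and 0.63 (0.37 to 1.06) times as high, intervals that include 1. With peaks within 1 kb merged, the ratio of K562 to digest A density was 0.61 (0.33 to 1.12) on the 3′ side of BCR and 1.30 (0.79 to 2.17) on the 3′ side of ABL1, intervals that include 1. With flanks of 250 kb it was 1.46 (0.96 to 2.26) on the 3′ side of ABL1, again including 1. Peaks next to each other are not independent, and a wide covered region can be listed as a few long or many short peaks. On the BCR gene body upstream of its middle, without the flank, the density order was the opposite of the cover order, with 11 K562 and 15 digest A centres, a ratio of 0.73 (0.30 to 1.71).

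On the BCR gene body itself, cover was high in both cell lines. K562 covered 80.4% of the gene, digest A 74.5%, digest B 85.0%, RNase A 58.0%, DRIPc 64.0% and RNase H none. That was 21.4 times the whole-list cover in K562 and 17.0 times in digest A. Upstream of the middle, K562 covered 98.6%, against 61.4%, 73.6%, 47.2% and 56.3% in digest A, digest B, RNase A and DRIPc. Downstream of it K562 fell to 62.3%, below 87.5%, 96.4%, 68.7% and 71.7%. The gene's upstream part was thus more completely covered in K562, and the downstream part less, than in each of these 4 NT2 lists. These values do not allow for the lists' different total cover. Divided by the ratio of whole-list cover, K562 downstream of the middle was 0.83 times digest A. It was then 1.08 times digest B, 1.17 times RNase A and 1.67 times DRIPc, so it stayed below digest A alone. Upstream of the middle the same division gave 1.87 to 3.37.

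**Figure D3:**
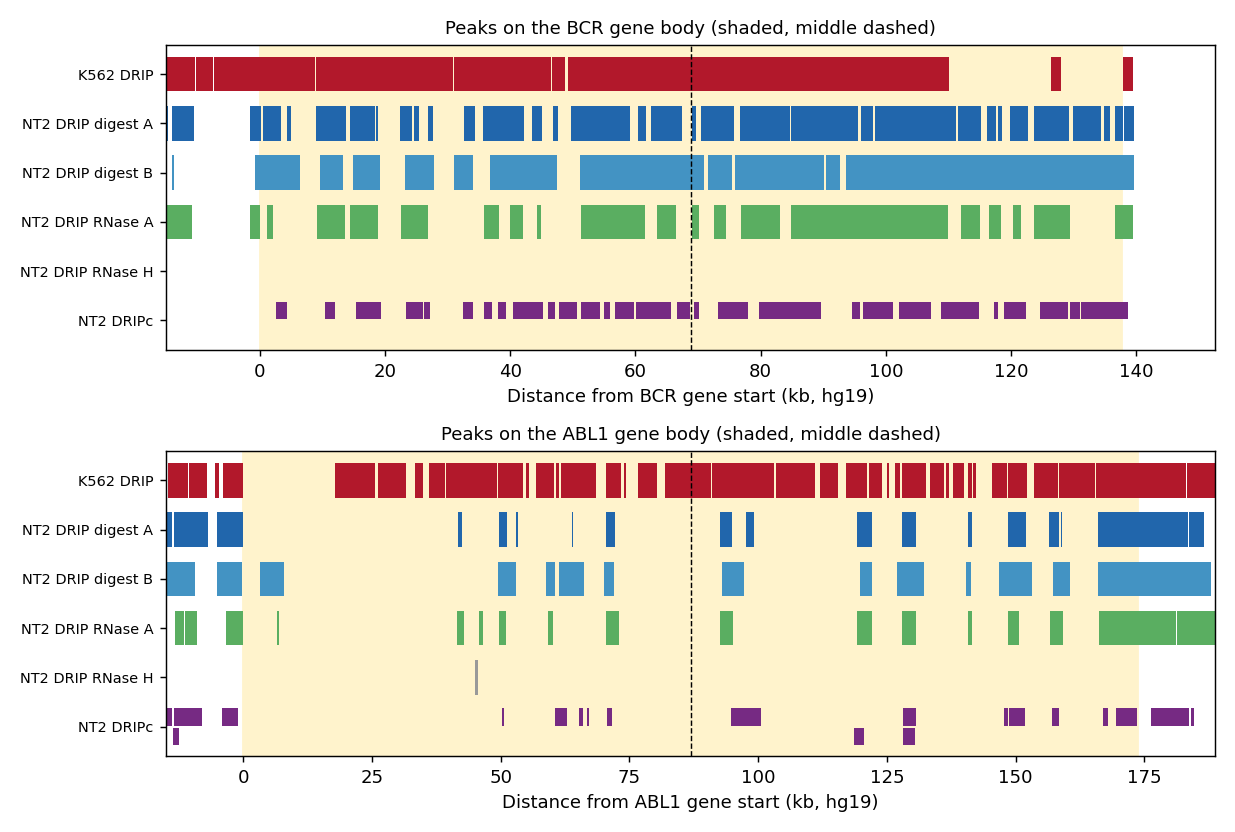
Peaks of the 6 lists on the BCR (top) and ABL1 (bottom) gene bodies with 15 kb on either side, by distance from the gene start in kb on hg19; the gene body is shaded and its middle dashed. K562 cover of BCR is nearly closed up to 110.1 kb and has 1 peak between there and the gene end, while K562 cover of ABL1 begins 17.8 kb after the gene start.

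The nearly continuous K562 cover ended within the BCR gene. The gene body held 16 K562 peaks from 265 to 33858 bp long, 8 of which abutted the next within 10 bp. The longest merged region ran from 23591091 to 23632695 (41.6 kb), and digest A covered 92.6% of it. After 23632695, 110.1 kb into the gene, no K562 peak followed until 23648987, a stretch of 16.3 kb and the longest without K562 cover in the gene. Digest A had 7 peaks in that stretch and covered 76.1% of it, digest B all but 1 bp, RNase A 55.9% and DRIPc 65.3%. In the rest of the gene, K562 had a single peak from 23648987 to 23650548. In the 50 kb before position 23632695 K562 covered 99.9% and digest A 89.2%, and in the 50 kb after it 6.15% and 47.2%. This position was read from the K562 list itself, so a fall of K562 cover there follows in part from that choice. Past the gene, a K562 peak from 23660494 to 23662005 was followed by 203.6 kb without any, whereas the longest uncovered stretch of the 3′ flank was 89.6 kb in digest A, 83.6 kb in digest B, 83.1 kb in RNase A and 76.4 kb in DRIPc.

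Peak edges near 23632695 were not confined to K562. The RNase A list of NT2 had a peak end at 23632531, 164 bp away, and its next peak began at 23634571. A DRIPc peak began at 23632652, 44 bp from it, and ran on to 23633458. In digest A and digest B a longer peak ran through the position, from 23626974 to 23633728 and from 23629595 to 23643684. The stretch of 16.3 kb without K562 peaks was longer than the longest uncovered stretch of the gene in each of these lists, which was 5.06 kb in digest A, 3.98 kb in digest B, 8.94 kb in RNase A and 6.04 kb in DRIPc.

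On the ABL1 gene body, K562 cover was above that of every NT2 list on both sides of the middle. K562 covered 74.5% of the gene body with 39 peaks of 270 to 17544 bp, digest A 16.4% with 16, digest B 27.2% with 13, RNase A 16.2% with 15, DRIPc 14.9% with 15 and RNase H 0.25% with 1 peak of 438 bp. Upstream of the middle, K562 covered 65.1%, against 5.49% in digest A, 19.2% in digest B, 8.48% in RNase A and 5.74% in DRIPc. Downstream of it, K562 covered 84.0%, against 27.3%, 35.1%, 23.9% and 24.0%. As a ratio, the excess over digest A was thus larger in the upstream part of the gene body (11.8 times) than in the downstream part (3.08 times), although the flanks gave the reverse. The upstream ratio rests on only 4.78 kb of digest A cover, with 5 peak centres. The upstream and downstream ratios were 3.39 and 2.39 with digest B, 7.68 and 3.51 with RNase A, and 11.3 and 3.49 with DRIPc.

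The first K562 peak on ABL1 ran from 133607094 to 133614927 and began 17.8 kb after the gene start. Between the start and this peak there was no K562 or DRIPc cover, 0.046 kb in digest A and 0.36 kb in RNase A. Digest B covered 4.64 kb of this stretch with 1 peak, or 26.0%, and so did not share the gap. The longest stretch of the gene without a peak, which in all 4 lists lay near its start, measured 41.7 kb in digest A, 34.6 kb in RNase A, 41.6 kb in digest B and 50.2 kb in DRIPc. In the 50 kb from 133607094 onwards, K562 covered 87.2%, against 6.09% in digest A, 20.3% in digest B, 9.10% in RNase A and 7.87% in DRIPc. In the 50 kb before that position, K562 covered 31.3% and digest A 35.4%. The position was read from the K562 list, so a rise of K562 cover there follows in part from that choice. The nearest NT2 peak edge was 9832 bp away, in digest B.

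Downstream of that position, K562 peaks continued past the end of ABL1. From 133607094 to 134161399, a stretch of 554.3 kb, K562 covered 83.7% and its longest gap was 5.11 kb. Both ends were read from the K562 list, so its high cover and short gaps follow in part from that choice. Over the same bases digest A covered 24.5%, digest B 29.1%, RNase A 30.7% and DRIPc 16.2%, with longest gaps of 90.8, 108.2, 67.2 and 112.1 kb. After 134161399, no K562 peak was listed for 81.7 kb. In the remaining 101.7 kb of the window K562 covered 2.05%, digest A 9.47%, RNase A 20.0%, digest B 1.87% and DRIPc none. The longest K562 regions of the window lay in the 3′ flank, from 133917410 to 133958171 (40.8 kb) and from 133963951 to 133999331 (35.4 kb), and digest A covered 59.8% and 81.6% of them. The third, from 133754882 to 133772425 (17.5 kb), spans the gene end and was 97.2% covered in digest A. The fourth was in the 5′ flank, from 133497088 to 133511227 (14.1 kb). The fifth, from 133904019 to 133917191 (13.2 kb), was again in the 3′ flank.

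**Figure D4:**
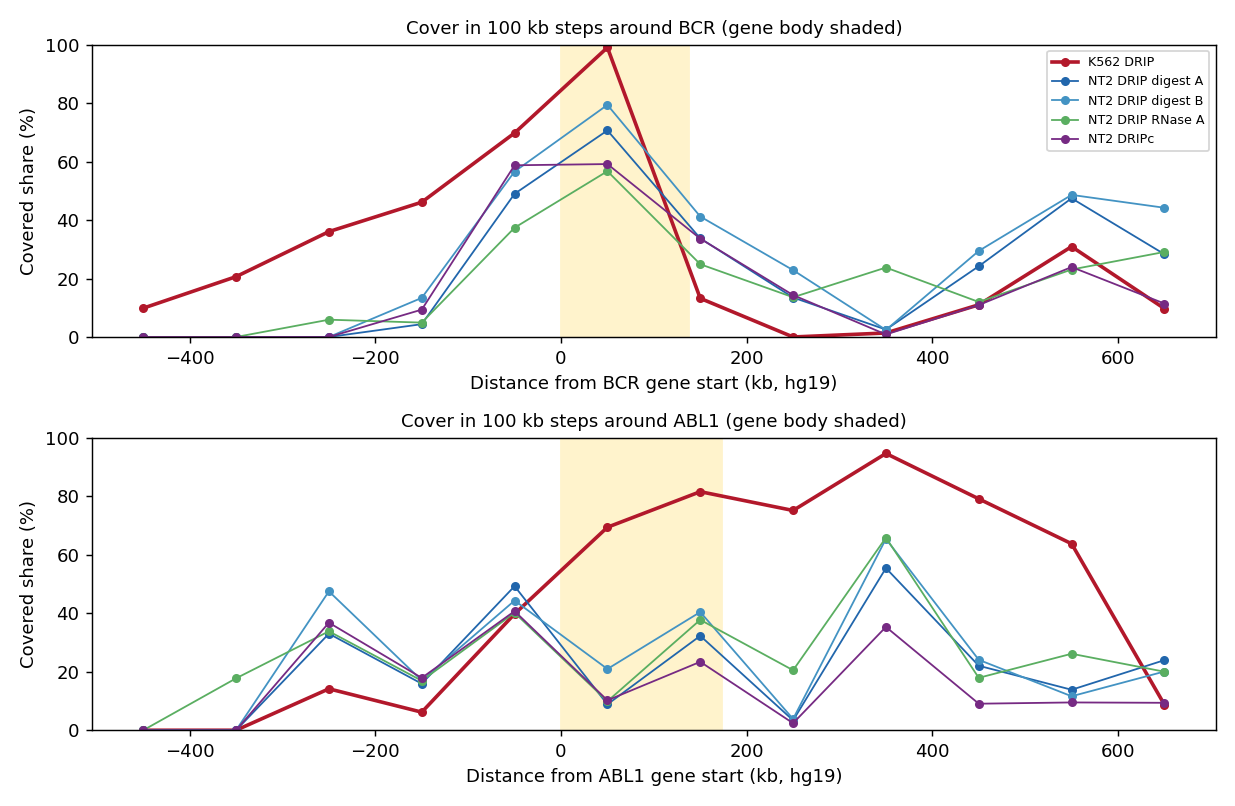
Cover in steps of 100 kb from 500 kb before to 700 kb after the start of BCR (top) and ABL1 (bottom), for K562 and the 4 NT2 lists other than RNase H; each point is the percentage of the step under a peak. K562 is above the NT2 lists in the 6 steps up to 100 kb at BCR, and in the 6 steps from the start of ABL1 to 600 kb.

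The flank before BCR held K562 peaks where digest A, digest B and DRIPc had none. From 500 to 200 kb before the gene, K562 covered 9.85%, 20.6% and 36.0% of successive 100 kb steps, while these 3 lists had no peak there. RNase A covered 5.92% of the third step, where the only RNase H peak of the BCR window also lay, from 23290360 to 23296517. Of the whole 5′ flank K562 covered 36.5% with 95 peaks, and digest A 10.7% with 22. The longest stretch without a K562 peak was 17.8 kb, against 389.0 kb in digest A, 386.6 kb in digest B, 267.9 kb in RNase A and 390.6 kb in DRIPc. The next protein-coding genes by order in the RefSeq table are RSPH14, which overlaps the BCR start there, and IGLL1 downstream, and for ABL1 they are EXOSC2 and QRFP.

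**Figure D5:**
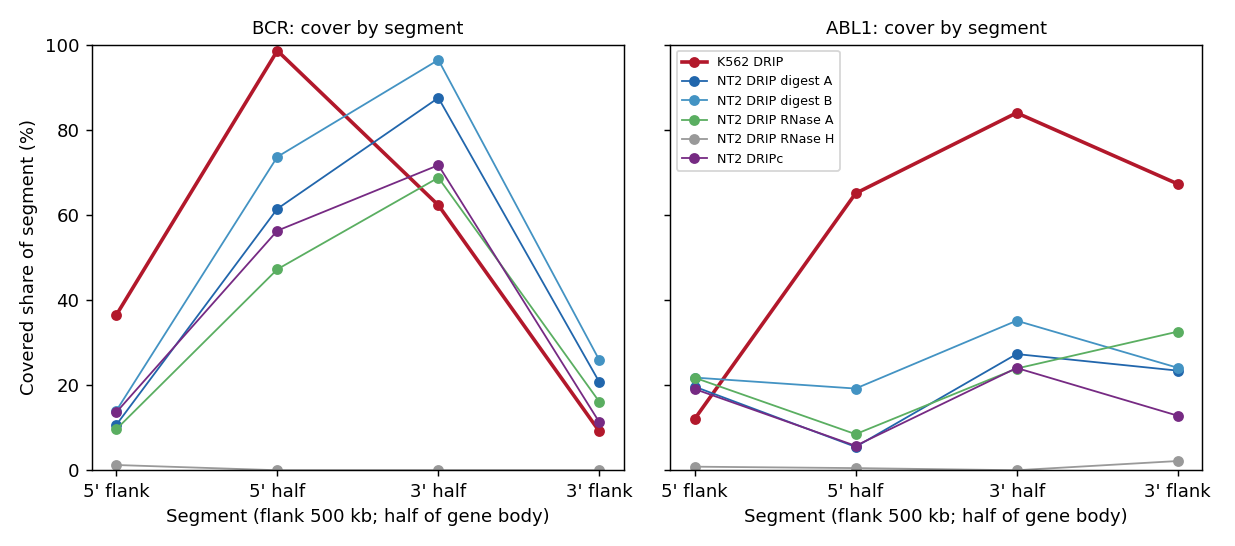
Cover of the 5′ flank, the gene body up to and after its middle, and the 3′ flank for BCR (left) and ABL1 (right), as the percentage of each segment under a peak; 1 line per list. The K562 line is the highest in the first 2 segments of BCR and in the last 3 of ABL1, and is at 9.12% in the BCR 3′ flank and 12.0% in the ABL1 5′ flank, lower there than each NT2 list except RNase H.

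Shared peaks followed the same division. Over the whole list, 54.7% of digest A peaks touched a K562 peak by at least 1 bp. On the 5′ side of BCR 35 of 37 digest A peaks did (94.6%, exact Clopper-Pearson 95% interval 81.8 to 99.3%), and on the 3′ side 29 of 65 (44.6%, 32.3 to 57.5%), an interval that includes the whole-list share. For ABL1 it was 28 of 33 (84.8%, 68.1 to 94.9%) on the 5′ side and 47 of 49 (95.9%, 86.0 to 99.5%) on the 3′ side. Wider K562 cover also makes a touch more likely, and this was not adjusted for. Seen from K562, 67.3% of all its peaks touched digest A, but 24 of 106 (22.6%, 15.1 to 31.8%) did on the 5′ side of BCR and 36 of 91 (39.6%, 29.5 to 50.4%) on the 3′ side of ABL1. On the opposite sides it was 22 of 26 (84.6%, 65.1 to 95.6%) for BCR and 24 of 39 (61.5%, 44.6 to 76.6%) for ABL1.

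The remaining NT2 lists divided in the same way at BCR. Of digest B peaks, 16 of 16 on its 5′ side and 22 of 36 on its 3′ side touched K562, against 50.4% of that list. Of RNase A peaks it was 22 of 24 and 20 of 40, against 52.4%, and of DRIPc peaks 38 of 38 and 20 of 41, against 32%. At ABL1, digest B gave 13 of 20 on the 5′ and 32 of 33 on the 3′ side, RNase A 22 of 37 and 47 of 54, and DRIPc 25 of 34 and 38 of 38. In each list the 5′ share was the higher at BCR and the 3′ share the higher at ABL1. Of the RNase H peaks, 36% of which touched K562 over the whole list, the single one at BCR did, and 6 of 14 at ABL1.

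The share of K562 peaks with a counterpart in the 4 NT2 lists other than RNase H was higher on BCR than on ABL1. The exact intervals of the 2 gene bodies overlap for each of these lists. On BCR, 12 of 16 K562 peaks touched digest A, 13 digest B, 9 RNase A and 13 DRIPc, against 67.3%, 66%, 63% and 50.4% of the whole K562 list. On ABL1, 16 of 39 touched digest A, 19 digest B, 16 RNase A and 15 DRIPc. An RNase H peak was touched by none on BCR and by 1 on ABL1, against 5.86% of the list. On BCR, 9 of 16 K562 peaks touched all of digest A, digest B, RNase A and DRIPc, and 2 touched none of them, from 23529499 to 23531432 and from 23550500 to 23553410. On ABL1, 10 of 39 touched all 4 and 17 touched none. Over the whole K562 list, 81.3% touched at least 1 of the 4, against 14 of 16 on BCR (87.5%, 61.7 to 98.4%) and 22 of 39 on ABL1 (56.4%, 39.6 to 72.2%). The first 4 K562 peaks of ABL1, between 17.8 and 39.2 kb after its start, were among the 17. The longest of them ran from 133671234 to 133680119 (8886 bp), across the middle of the gene. Each peak of those 4 NT2 lists on either gene touched at least 1 of the remaining lists. Whole-list shares for this count, and for K562 peaks touching all 4 lists, were not computed. Whether these counts are ordinary is therefore not known.

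Within NT2, digest A peaks on BCR touched digest B, RNase A and DRIPc peaks more often than over the whole digest A list. All 35 digest A peaks on BCR touched a digest B peak, 30 an RNase A peak and 34 a DRIPc peak, where the whole digest A list gave 76.8%, 65.5% and 61.4%. On ABL1, 14 of 16 touched digest B, 13 RNase A and 11 DRIPc. The exact intervals of these ABL1 shares, 61.7 to 98.4%, 54.4 to 96.0% and 41.3 to 89.0%, include the whole-list values. No digest A peak on either gene body touched an RNase H peak, against 5.09% of the whole list. The single RNase H peak on ABL1 lay 45.1 kb after the gene start and touched a K562 peak.

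The strand of the hybrid RNA was that of the gene for nearly all DRIPc peaks on the genes. All 32 DRIPc peaks on BCR were on the plus strand, and they covered 56.3% of the gene upstream and 71.7% downstream of its middle. On ABL1, 13 of 15 were on the plus strand. The 2 minus strand peaks ran from 133707854 to 133709869 and from 133717403 to 133719664. The first lay near the unconverted distance of the downstream promoter, and the second opposite a plus strand peak from 133717292 to 133719835. Over the whole DRIPc list, 52.3% of peaks were on the plus strand. That share does not say how often a peak has the strand of its own gene, which was not computed for the list. In the flanks, the plus strand held 18 of 21 peaks before BCR and 9 of 26 after it, and 26 of 28 before ABL1 and 25 of 29 after it. Strand was not measured in K562.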

How the data were processed

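Only peak lists were analysed: 6 human lists of the 9 in the series, with mouse lists, RNA-seq and MethylC-seq set aside. What the authors deposited per list are peak positions in bp, with a strand for DRIPc, and no height, fold or p-value. Depth is therefore unknown, and a missing peak means a region not listed. Among tools, Bismark 0.7.7, BWA 0.6.1 and TopHat2 2.0.5 appear in the submitters' processing notes, as does hg19 among builds, without roles. As for the peak caller, it is not given in the sources read.

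Overlapping peaks were merged for cover, and centres were counted for density. Density ratios carry exact conditional binomial 95% intervals. Python 3.11.15, numpy 2.4.6, scipy 1.17.1 and matplotlib 3.10.9 were used. Functions were tested on simulated intervals, and shared counts were checked with bedtools 2.31.1. Every peak on the gene bodies was considered, and the 5 longest regions of each window in K562 and digest A were listed. The RefSeq table is on GRCh38.p14, so exons, introns and a list of ABL pathway genes were not analysed here. The genes, windows and comparisons were chosen with earlier results of these data known, and the positions at which K562 cover stops or starts were read from the K562 list itself.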

Additional observations from a re-analysis of the deposited data

How the results depend on the processing

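The ratios of K562 to digest A were recomputed with the longest 50% of each list, with flanks of 250 kb, on the gene body alone and, for density and sharing, with peaks within 1 kb merged. Cover ratios kept their direction. In the order longest peaks, shorter flanks and gene body alone, they were 2.39, 2.13 and 1.60 on the 5′ side of BCR, 0.56, 0.59 and 0.71 on its 3′ side, 1.10, 1.20 and 11.8 on the 5′ side of ABL1, and 2.96, 2.67 and 3.08 on its 3′ side. The density ratio on the 5′ side of BCR was 1.71 with the longest peaks and 1.70 with shorter flanks, and it reversed to 0.73 (0.30 to 1.71) on the gene body alone, where K562 had 11 peak centres under 98.6% cover and digest A 15 under 61.4%. On the gene body alone it was 0.21 on the 3′ side of BCR and 3.20 on the 5′ side of ABL1. The other 17 values stayed within the counting interval of the original, but 3 of them had intervals that include 1 where the original's did not: with peaks merged, 0.61 (0.33 to 1.12) on the 3′ side of BCR and 1.30 (0.79 to 2.17) on the 3′ side of ABL1, and with shorter flanks 1.46 (0.96 to 2.26) on the latter. Among the 17 were all shares of digest A peaks touching K562, also when 50% of the peak had to be covered. No paired analysis was possible because each list stands for a single group and no test was made. Depth and threshold of each library are unknown, which limits every comparison of cover.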

Other observations

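The contrast between the lists extended past the BCR window on chromosome 22. In steps of 100 kb over the 3 Mb before the BCR start, K562 cover was above digest A cover in 29 of the 29 steps where either list covered at least 1%. From 100 kb after the start onwards it was above in 4 of 27. Around ABL1, K562 was above digest A in 13 of 27 steps before the gene start and in 7 of 25 from 100 kb onwards, and 5 of those 7 were the steps from 100 to 600 kb. The share of all 100 kb steps of the genome in which K562 was above digest A was not computed. The median 500 kb tile had 0.73 times the digest A cover, so K562 cover below digest A was common across the genome. The steps were chosen after the data were examined, and adjoining steps are not independent.

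Of chromosome 22 as a whole, K562 covered 10.9% and digest A 10.9%. On chromosome 9, K562 covered 3.80% and digest A 4.80%.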
